A study of Mus musculus with 15 samples.

Results

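The genes described here encode the nuclear subunits of respiratory chain complexes I to IV. They were taken by symbol (Ndufa, Ndufb, Ndufc, Ndufs or Ndufv followed by a digit, Sdha to Sdhd, names starting with Uqcr, Cyc1, and Cox4 to Cox8). Pseudogenes and the Ndufaf assembly factors were left out, and 68 of the 49585 genes in the count tables remained. Assigned by symbol alone, complex I contributed 37 genes, complex II 4, complex III 9 and complex IV 18. All 68 were listed in the tables of the HC and KMC experiments. The table of the MC experiment held 15175 genes and 65 of the 68, without Cox7b2, Cox8b and Cox8c. Exons of 22 of the 68 overlapped exons of another gene in the annotation, mostly on the opposite strand, and those counts are less certain.

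Bulk RNA-Seq was made of pancreas from C57BL/6 mice, with 15 libraries of 3 pooled mice each. HPK1 (gene symbol Map4k1) is a serine/threonine kinase that restrains Ras and T cell signaling, and M46 is its kinase-dead form. The transgenes were switched on by Bac-cre, a tamoxifen-inducible Cre driven by an elastase promoter that is active in acinar cells, so other pancreatic cell types were not targeted directly. MC mice (M46 with Bac-cre, labelled HPK1-M46 transgenic, 2 months, 3 libraries) were compared with the B control (2 months, 3 libraries). HC mice (HPK1 with Bac-cre, labelled HPK1/B, 4 months, 3 libraries) were compared with the wildtype control (4 months, 2 libraries). Mice of both experiments had received cerulein, a secretagogue that injures acinar cells. KMC mice (M46/Ras/B, 9 months, 2 libraries) were compared with KC mice (Ras/B, 15 months, 2 libraries). Both groups carry the Ras allele of their labels with Bac-cre, and KMC mice carry M46 in addition. The labels give pancreas as the tissue of these libraries, while the study's text calls them PDAC (pancreatic ductal adenocarcinoma) samples. The comparisons ask what HPK1, its kinase-dead form, or the kinase-dead form on the Ras/B background does to the pancreas. Nothing in the labels says how the pools of a group relate to each other, so the p-values measure the spread between these libraries.

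The respiratory chain sits in the inner mitochondrial membrane. Complex I (NADH dehydrogenase) and complex II (succinate dehydrogenase) pass electrons to ubiquinone, complex III (cytochrome bc1) passes them to cytochrome c, and complex IV (cytochrome c oxidase) passes them to oxygen. Complexes I, III and IV pump protons, and ATP synthase uses the gradient. Most subunits are encoded in the nucleus, and a core set in complexes I, III and IV is encoded by mitochondrial DNA. Acinar cells spend much ATP on the synthesis and secretion of digestive enzymes. Several complex IV subunits have a second gene that is used mainly in muscle, lung, testis or perivascular cells. So does Ndufa4, which like its homolog Ndufa4l2 was counted in complex I here by symbol alone.

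Many respiratory chain genes have promoters with sites for NRF1, for the ETS factor GABP and for YY1, regulators known for their part in mitochondrial biogenesis. The promoters of 3 members, from complexes I, III and IV, are shown because they carry such letters and because their genes are among those described further on. They were chosen after the matches were seen. Sequences and positions are from RefSeq on GRCm38.p6. Each run is the longest stretch of the 250 bases before the transcription start that overlaps no annotated exon, read 5′ to 3′ on the minus strand, with matches in capitals. For Ndufs5 this is chr4:123718203-123718436, for Uqcr11 chr10:80406831-80407071 and for Cox6a1 chr5:115348982-115349129.
Ndufs5: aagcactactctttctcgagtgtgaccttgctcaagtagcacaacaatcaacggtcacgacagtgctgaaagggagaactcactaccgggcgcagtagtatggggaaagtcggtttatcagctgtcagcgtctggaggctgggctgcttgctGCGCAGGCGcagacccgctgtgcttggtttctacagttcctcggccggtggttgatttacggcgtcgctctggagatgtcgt
Uqcr11: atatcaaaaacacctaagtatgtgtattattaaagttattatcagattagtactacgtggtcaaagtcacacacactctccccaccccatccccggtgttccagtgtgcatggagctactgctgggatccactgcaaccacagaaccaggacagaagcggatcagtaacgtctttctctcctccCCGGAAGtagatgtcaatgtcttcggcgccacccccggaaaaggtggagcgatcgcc
Cox6a1: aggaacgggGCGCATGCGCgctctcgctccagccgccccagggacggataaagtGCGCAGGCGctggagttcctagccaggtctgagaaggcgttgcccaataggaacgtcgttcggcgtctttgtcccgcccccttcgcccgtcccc

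Ndufs5 holds 1 match to the NRF1 letters GCGCANGCG, which begins 98 bases before the start. Uqcr11 holds a match to the ETS letters CCGGAAG at 66 bases. Cox6a1 holds overlapping NRF1 matches on both strands at 162 and 161 bases and another at 117 bases. Over the 300-base windows (250 bases before to 50 after the start, both strands) that were found for 53 of the 68 members, the NRF1 letters were in 13 (24.5%, against 7.03% of the windows of 27025 genes). The ETS letters were in 11 (20.8%, against 9.93%) and the YY1 letters AAGATGGC in 7 (13.2%, against 3.19%). The letters TCAAGGTCA, bound by estrogen-related receptors, were in 1 member (1.89%, against 0.466%). At least 1 of NRF1, ETS and YY1 was present for 27 of 53 members (50.9%, against 17.8% of all genes). These were 18 of 32 in complex I, 3 of 3 in complex II, 3 of 5 in complex III and 3 of 13 in complex IV. A match is a description of the letters and not evidence of binding.

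Each library held 29766575 to 38745907 counts. The markers of the labelled tissue were present, since the acinar genes took 38.9% to 58.5% of the counts in the MC experiment, 6.02% to 9.34% in the HC experiment and 26.4% to 73.4% in the KMC experiment. Levels are given as CPM, read counts relative to the library total adjusted by edgeR's TMM factors within each experiment, and compare a gene between the libraries of 1 experiment only. Map4k1 stood at 8.32, 6.79 and 7.51 CPM in MC against 3.80, 4.14 and 2.34 in the control. It stood at 7.33, 5.05 and 7.93 in the libraries labelled HC against 15.4 and 11.5 in their control, and at 5.92 and 11.4 in KMC against 0.545 and 1.55 in KC. The HC values go against the label if the transgene is counted under Map4k1, which is not known. Leukocyte markers moved in the same directions as Map4k1, higher for 8 of 8 genes in MC and KMC and lower for 8 of 8 in HC. The part of leukocytes in the Map4k1 levels was not tested. The sex-linked genes also separated libraries. Both KC libraries and the third HC library showed the Y-linked Ddx3y (10.7, 17.3 and 48.4 CPM) with almost no Xist, and the other HC, HC control and KMC libraries the reverse. Neither gene was listed for the MC experiment, so sex could not be read from them there. In the KMC experiment sex, age and genotype cannot be told apart.

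The nuclear subunits took 0.246% to 0.337% of the counts of a library in the MC experiment, 0.388% to 0.537% in the HC experiment and 0.170% to 0.303% in the KMC experiment. Per kilobase of transcript, the highest mean levels in the MC experiment were those of Uqcrh at 175.6 ± 31.0 CPM per kilobase (SD, n = 6) and Cox6a1 at 167.1 ± 16.4. Ndufa6 at 165.3 ± 32.9 and Cox4i1 at 162.8 ± 15.8 followed, and the neighbours in this order differed by less than their spread. Cox4i1, the ubiquitous subunit 4 of complex IV, had the highest mean in the other experiments by less than the spread between libraries. It was at 298.7 ± 55.2 CPM per kilobase (SD, n = 5) in the HC experiment, against 283.4 ± 56.8 for Cox8a, and at 155.7 ± 107 (SD, n = 4) in the KMC experiment, against 154.5 ± 131 for Uqcrh. The isoforms Cox7b2, Cox8b and Cox8c were near the floor. In the HC and KMC experiments Cox7b2 had 0 to 3 counts per library, Cox8b 0 to 2 and Cox8c 0, and a count of 0 allows for up to 3 counts of the library.

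In MC pancreas the nuclear subunits differed little from the B control, and none passed the test. Of 65 members tested, 15 had a higher and 50 a lower estimate, against 46.9% and 53.1% of all genes. The median log2 fold change was -0.08, against -0.02 over the 13902 genes tested. The 9 complex III genes were all lower in the estimate, with a median of -0.16, while complex IV was split, with 8 of 15 higher and a median of 0.00. No member was called at an adjusted p of at most 0.05 by edgeR or by DESeq2, and edgeR called 0% of all genes (DESeq2 4.26%). At an unadjusted p under 0.05 there were 0 members, against 14.7% of all genes. The medians for complexes I and II were -0.10 (30 of 37 genes lower) and -0.08 (4 of 4 lower). The split rested on single libraries, with 34 higher and 31 lower without the third control library and 29 higher and 36 lower without the second MC library. These directions also depend on the scaling. With library size alone, 64 of 65 members were higher and the median was 0.25, against 0.29 for all genes, so relative to all genes the members lay at -0.06 with TMM and at -0.05 with library size alone.

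Ndufs7, an iron-sulfur subunit of the complex I arm that reduces ubiquinone, had the smallest p. It stood at 42.5, 36.3 and 34.9 CPM in MC and at 45.5, 38.8 and 57.4 in the control. The first MC library lay inside the control range, and the log2 fold change was -0.32 (SE 0.16, edgeR adjusted p = 0.394). Ndufs1, the largest iron-sulfur subunit, stood at 26.1, 24.1 and 25.5 CPM in MC and 27.2, 26.4 and 33.0 in the control. The groups did not overlap, but the difference was small, at -0.19 (SE 0.12, edgeR adjusted p = 0.463). Ndufb2, an accessory subunit of the membrane arm, stood at 2.50, 1.6 and 2.22 CPM against 2.58, 2.80 and 3.32, again without overlap (-0.46, SE 0.25, edgeR adjusted p = 0.407). The Ndufb2 gene (chr6:39592574-39603382, plus strand, GRCm38) overlaps exons of Gm42420 on the same strand and of Braf and Gm16272 on the opposite strand. These 2 genes and no other members were lower without overlap, against 9.89% of all genes.

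Sdhb, the iron-sulfur subunit of complex II, stood at 60.6 ± 5.69 CPM in MC and 71.8 ± 15.9 in the control (SD, n = 3). Sdha, the flavoprotein that oxidises succinate, was at 97.2 ± 5.28 against 99.6 ± 9.77, and both overlapped. In complex III, the core protein Uqcrc1 stood at 104, 95.5 and 109 CPM in MC and at 117, 106 and 143 in the control, an overlap in 1 library (-0.25, SE 0.14, edgeR adjusted p = 0.425). The hinge protein Uqcrh (-0.26), the Rieske protein Uqcrfs1 (-0.25) and cytochrome c1, Cyc1 (-0.21), had similar estimates and overlapped too. The summed counts of complex III relative to complex I were 0.444, 0.431 and 0.452 in MC and 0.469, 0.458 and 0.477 in the control, lower in each MC library, with no test made. In complex IV, Cox4i1, Cox5a and Cox6c had log2 fold changes of -0.14, 0.03 and 0.13 and overlapped. Cox6b2, the testis isoform of subunit 6B, was the only member higher without overlap, against 10.9% of all genes. It stood at 0.676, 0.705 and 0.568 CPM against 0.264, 0.566 and 0.135, which is 20 to 30 counts against 3 to 19 (0.95, SE 0.50, edgeR adjusted p = 0.399).

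Markers of other cells stood higher in MC beside these small differences. Leukocyte markers were higher for 8 of 8 genes (6 at p under 0.05), with a sum of 375 to 546 CPM against 146 to 351, and macrophage markers for 8 of 8 (5 at p under 0.05). Fibroblast markers were higher for 8 of 8 (3 at p under 0.05), smooth muscle and pericyte markers for 9 of 9 (2 at p under 0.05) and adipocyte markers for 6 of 6 (6 at p under 0.05), the last at 48.7 to 129 CPM against 31.4 to 37.8. Acinar markers were lower for 30 of 36 (2 at p under 0.05) and higher for 6 (2 at p under 0.05, among them Prss1 at 2.96, edgeR adjusted p = 0.155), at 38.9% to 48.3% of the counts against 44.0% to 58.5%. Over all genes, 14.7% had a p under 0.05 in either direction, and 5.46% were lower at such a p. The ductal, islet and erythroid sums overlapped. The part of these cells in the subunit levels was not tested.

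**Figure D1:**
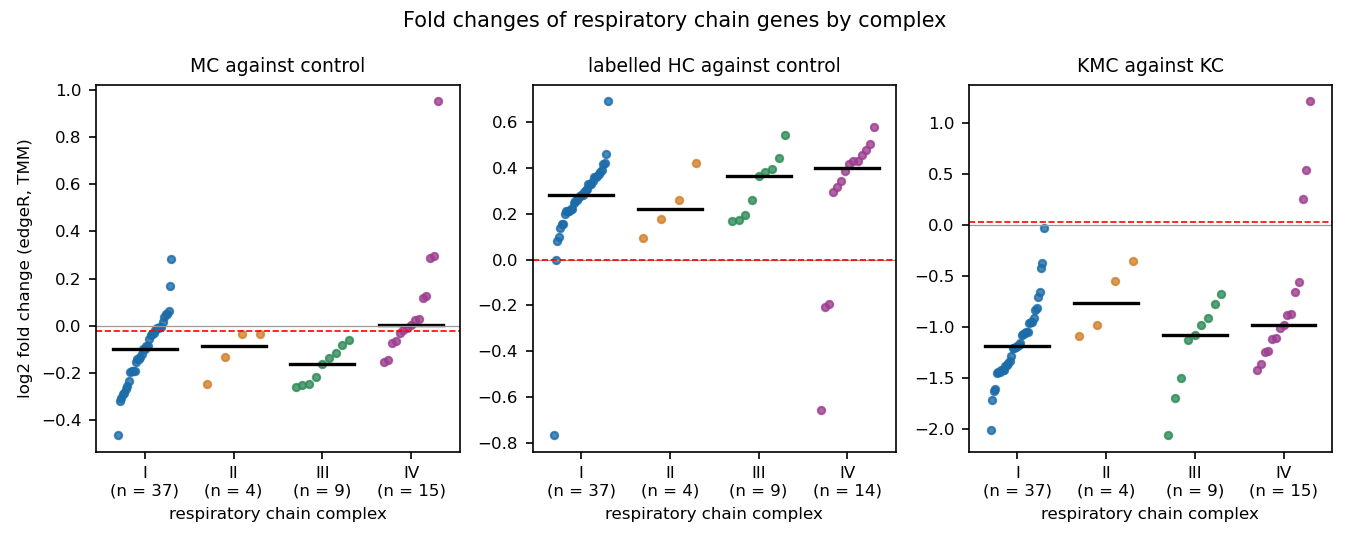
Log2 fold change of each tested member (points) by respiratory chain complex on the x axis, for MC, HC and KMC against their controls (edgeR with TMM scaling, y axes differ between panels), with the group median as a bar and the median of all genes as a dashed line. The medians are -0.08 in MC, 0.30 in the libraries labelled HC and -1.08 in KMC.

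In the libraries labelled HC most nuclear subunits stood higher than in the wildtype control and no member passed the adjusted test in edgeR. Of 64 members tested, 59 were higher and 5 lower, against 49.8% and 50.2% of all genes. The median log2 fold change was 0.30, against 0.00 over 18407 genes. It was 0.28 in complex I (35 of 37 higher), 0.22 in complex II (4 of 4), 0.37 in complex III (9 of 9) and 0.40 in complex IV (11 of 14). The 2 lower estimates in complex I were those of Ndufa4 (-0.001) and Ndufa4l2 (-0.77), both placed there by symbol. EdgeR called no member at an adjusted p of at most 0.05, where it called 0.739% of all genes, and DESeq2 called 1 member, where it called 6.81%. At an unadjusted p under 0.05, 27 members were higher (8.39% of all genes) and 1 lower (7.47%). In 47 members every HC library lay above both controls, against 17.5% of all genes. The 28 members under an unadjusted p of 0.05, against 15.9% of all genes, became 39 without the first HC library, against 21.2%. They became 12 without the second HC library, against 10.9% of all genes, and 9 without the third, against 11.9%. Without the first or second control library, which leaves 1 control, the median log2 fold change of the members was 0.32 or 0.28. The median kept between 0.21 and 0.38 in those fits. In bulk tissue, fewer cells of a type and less RNA per cell cannot be told apart.

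Uqcr10, a small complex III subunit beside cytochrome c1 (chr11:4701973-4704342, minus strand, GRCm38), had the smallest p of all members. It stood at 59.4, 74.5 and 64.8 CPM in the libraries labelled HC and at 47.9 and 42.9 in the control. Every HC library was above both controls, and the log2 fold change was 0.55 (SE 0.13, edgeR adjusted p = 0.126). It was the member that DESeq2 called (0.54, DESeq2 adjusted p = 0.0240). Uqcr11, another small subunit of complex III, stood at 71.2 ± 7.75 CPM (SD, n = 3) against 54.7 ± 6.40 (SD, n = 2), without overlap. Cyc1 was higher without overlap (82.0 ± 6.24 against 68.5 ± 1.93 CPM), as was Uqcrc1 (140 ± 6.43 against 124 ± 0.919). The core protein Uqcrc2 (0.17) and the Rieske protein Uqcrfs1 (0.19) overlapped with the control. The summed level of complex III was 758 to 942 CPM against 685 to 689.

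Cox5a, a subunit on the matrix side of complex IV, stood at 40.9, 55.1 and 42.3 CPM in the libraries labelled HC and at 32.8 and 28.9 in the control. The groups did not overlap, and the second HC library was the highest (0.58, SE 0.16, edgeR adjusted p = 0.174). Cox8a, the ubiquitous subunit 8, stood at 163, 197 and 168 CPM against 137 and 115 (0.48, SE 0.14, edgeR adjusted p = 0.181). Cox6c was at 118 ± 15.3 CPM against 87.6 ± 3.37 (0.43, SE 0.13). Cox4i1 was higher by less, at 203, 295 and 246 CPM against 195 and 202, with its first HC library next to the control (0.32, SE 0.17, edgeR adjusted p = 0.420). The isoform Cox4i2, used in lung and pericytes, lay on the other side, at 1.33 ± 0.125 CPM against 2.10 ± 0.539 (-0.66, SE 0.29, edgeR adjusted p = 0.332). Summed complex IV reached 1229 to 1712 CPM in HC and 1111 to 1115 in the control. Relative to complex I, its counts were 0.695, 0.773 and 0.729 against 0.670 and 0.680.

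In complex I, Ndufb9 of the membrane arm stood at 83.3, 109 and 99.5 CPM in the libraries labelled HC and at 73.1 and 72.7 in the control (0.42, SE 0.13, edgeR adjusted p = 0.216). All 3 HC libraries were above both controls, and the same held for 28 of the 37 complex I genes. Exons of Ndufb9 overlap those of Gm49356 on the same strand. The core subunits differed less, with Ndufs1 at 46.7, 46 and 47.5 CPM against 43.2 and 44.1 (0.10, SE 0.09) and Ndufv1, the NADH-binding flavoprotein, at 79.5 ± 3.42 against 69.2 ± 2.70 (0.20, SE 0.09). Ndufa4l2, a homolog of Ndufa4 induced by hypoxia and present in pericytes, was lower in every HC library, at 5.82, 3.69 and 4.85 CPM against 9.01 and 7.30 (-0.77, SE 0.25, edgeR adjusted p = 0.220). Among the tested members, Ndufa4l2 and Cox4i2 were the 2 lower without overlap, against 16.1% of all genes, and Cox6a2, which did not pass the filter on low counts, was lower without overlap too. In complex II, Sdhd, a membrane anchor, stood at 112, 147 and 124 CPM against 95.9 and 94.7 (0.42, SE 0.13, edgeR adjusted p = 0.217), and Sdha at 219, 212 and 225 against 194 and 192 (0.18, SE 0.10). The iron-sulfur subunit Sdhb (0.26) and the anchor Sdhc (0.09) overlapped.

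**Figure D2:**
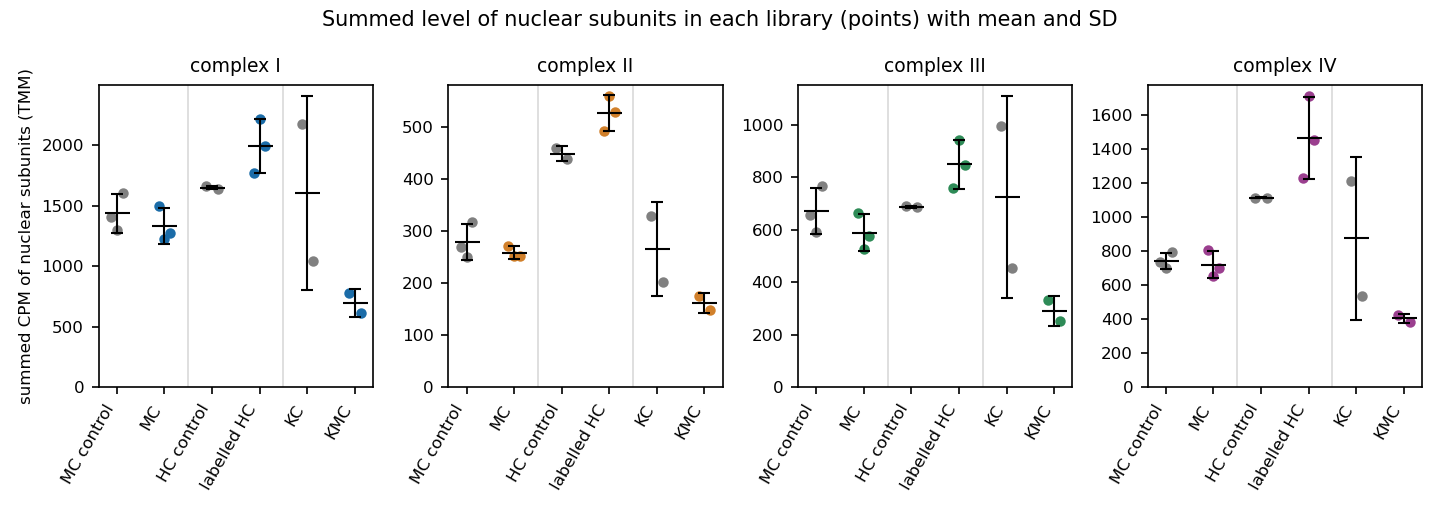
Summed CPM (TMM, y axis from 0) of the nuclear subunits of complexes I to IV in each library (points) of the 6 groups, with mean and SD, to be compared only between a group and its own control. The 3 HC libraries lie above both controls in each complex, and the first KC library stands far above the other KC and KMC libraries.

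Several cell type markers moved in the HC experiment beside these genes. Leukocyte markers were lower for 8 of 8 genes (7 at p under 0.05), with a summed level of 395 to 552 CPM against 617 to 1058. Macrophage markers were lower for 8 of 8 (6 at p under 0.05), at 1627 to 2509 CPM against 2572 to 4414. Smooth muscle and pericyte markers were lower for 7 of 10 (4 at p under 0.05), at 439 to 586 CPM against 693 to 810, and fibroblast markers for 6 of 8 (1 at p under 0.05). Ductal markers were higher for 8 of 10 (4 at p under 0.05), at 6213 to 7838 CPM against 5405 to 5679. Islet markers were higher for 7 of 7 (2 at p under 0.05), at 3492 to 5589 CPM against 2932 to 3154. Erythroid markers were higher for 5 of 5 (5 at p under 0.05), at 73.0 to 793 CPM against 59.0 to 76.8. Over all genes, 8.39% were higher and 7.47% lower at a p under 0.05. Acinar and white adipocyte markers overlapped in sum. Of 4 brown adipocyte markers 2 were above 3 counts in every HC library, and the sum was 27.1 to 34.8 CPM against 16.3 to 20.7. Skeletal muscle genes, 5 of 9 above 3 counts, summed to 8.50 to 11.1 CPM against 5.74 to 6.45. The part of these cell types, or of the third HC library's sex, in the higher subunit levels was not tested.

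In the KMC libraries nearly all nuclear subunits stood below KC, relative to other genes, and the size of the difference rested on 1 KC library. Of 65 members tested 62 were lower and 3 higher, against 48.7% and 51.3% of all genes, with a median log2 fold change of -1.08 against 0.03 over 15733 genes. The median was -1.19 in complex I (37 of 37 lower), -0.76 in complex II (4 of 4), -1.07 in complex III (9 of 9) and -0.98 in complex IV (12 of 15). EdgeR called no member, where it called 0.0191% of all genes. DESeq2 called 16 members lower, where it called 3.86% of all genes lower: 11 in complex I, 3 in complex III and 2 in complex IV. At an unadjusted p under 0.05, 38 members were lower, against 9.48% of all genes. In 59 members both KMC libraries lay below both KC libraries, against 30.9% of all genes.

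The first KC library stood apart. The median member was 1.01 above its mean over the 4 libraries there on the log2 scale, and -0.00 in the second KC library, -0.35 in the first and -0.61 in the second KMC library. Without the first KC library, the median log2 fold change of the members was -0.50, against 0.05 for all genes. Without the second KC library it was -1.51, against 0.17. It was -1.21 without the first KMC library, against 0.05, and -0.92 without the second, against 0.04. A group left with 1 library was assumed to vary like the other.

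Scaling decided the direction as well. The acinar markers' share of the counts was 73.4% and 63.7% for KC but 52.4% and 26.4% for KMC, and the TMM factors ran from 0.486 in the first KC to 2.17 in the second KMC library. As a share of all counts the groups overlapped, with the members at 0.229% and 0.170% for KC and at 0.212% and 0.303% for KMC, and of the 4 complexes complex II alone was higher in KMC without overlap. With library size alone, 59 of 65 members were higher in KMC, with a median of 0.45 against 1.47 for all genes. When acinar genes were left out of the library size, the median was -0.57 against 0.53. In each of these fits the members lay below the genes at large, and over all the alternatives their median less that of all genes ran from -1.69 to -0.55.

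**Figure D3:**
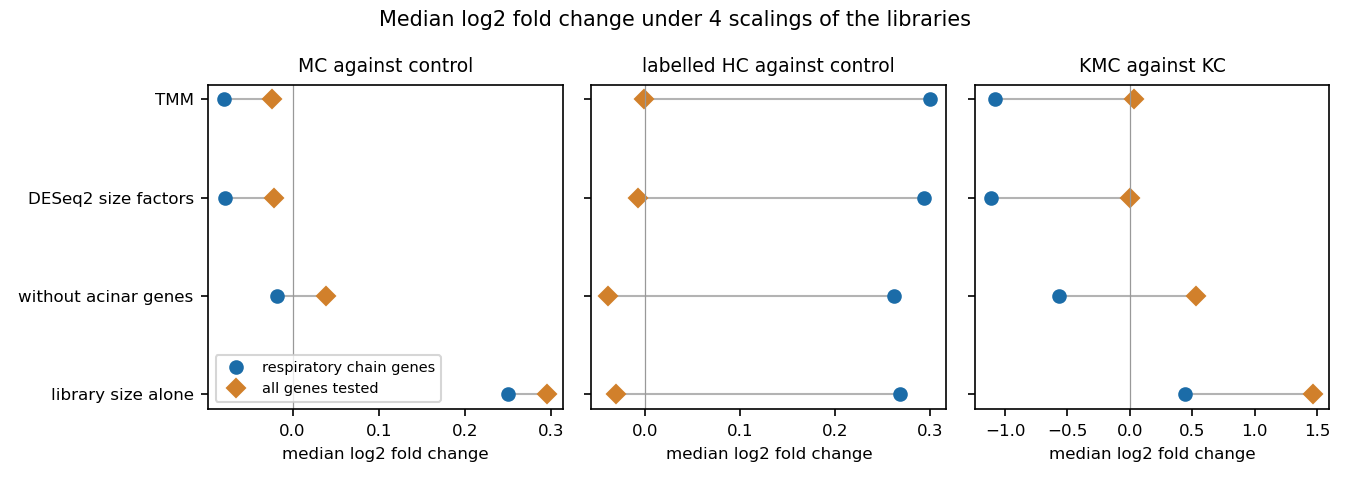
Median log2 fold change (x axis) of the members and of all genes tested under 4 scalings of the libraries (y axis), in the 3 comparisons. In KMC against KC the members' median moves from -1.08 to 0.45 with library size alone and the median of all genes from 0.03 to 1.47, and the members stay below.

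In complex III, Uqcrq, the small subunit known as the ubiquinone-binding protein (chr11:53427922-53430831, minus strand, GRCm38), stood at 53.1 and 31.4 CPM in KMC and at 266 and 86.4 in KC. Both KMC libraries were below both KC libraries, which differed from each other by more than the second KC library did from KMC (-2.06, SE 0.63, edgeR adjusted p = 0.123). DESeq2 called it (-2.03, DESeq2 adjusted p = 0.0029), and without the first KC library the estimate was -1.04. Uqcr11 stood at 33.3 and 22.2 CPM against 132 and 47.0 (-1.69, SE 0.55, edgeR adjusted p = 0.132). The core protein Uqcrc2 had the smallest difference in complex III, at 37.0 and 25.6 CPM against 58.6 and 41.5 (-0.68, SE 0.37, edgeR adjusted p = 0.277). Uqcrc1 (-0.77), Cyc1 (-0.98) and Uqcrfs1 (-1.07) lay between them. All 9 genes were lower without overlap.

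In complex I, Ndufs7 had the smallest p, at 18.3 and 15.9 CPM in KMC and 48.8 and 30.3 in KC (-1.21, SE 0.36, edgeR adjusted p = 0.120). Ndufb9 stood at 49.3 and 27.1 CPM against 173 and 77.9 (-1.72, SE 0.54, edgeR adjusted p = 0.129). Both KMC libraries were lower in each of these genes, and without the first KC library the estimates were -0.83 and -1.04. Ndufv1 stood at 31.9 and 22.7 CPM against 66.7 and 46.6. Ndufs1 overlapped, at 18.4 and 14.4 CPM against 17.8 and 24.4 (-0.37, SE 0.33, edgeR adjusted p = 0.501). Complex II had the smallest median difference. Sdhb stood at 42.5 and 33.6 CPM against 105 and 56.4 (-1.09, SE 0.43, edgeR adjusted p = 0.172), Sdhc at 32.5 and 28.2 against 82.5 and 37.3 (-0.98, SE 0.44), and Sdha at 69.4 and 54.6 against 85.8 and 72.8 (-0.36, SE 0.37). The summed counts of complex II relative to complex I were 0.226 and 0.240 in KMC and 0.151 and 0.195 in KC. This ratio does not depend on the scaling of the libraries and was not tested.

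In complex IV, Cox7a2, the ubiquitous subunit 7A, stood at 28.6 and 22.6 CPM in KMC and 93.9 and 37.5 in KC (-1.36, SE 0.49, edgeR adjusted p = 0.151). Cox6a1 stood at 50.9 and 41.0 CPM against 177 and 68.6 (-1.42, SE 0.53, edgeR adjusted p = 0.160). Cox4i1 stood at 73.5 and 68.1 CPM against 241 and 94.5 (-1.24, SE 0.54). Both KMC libraries were lower in all 3 genes, and the second KC library was nearer to KMC than to the first KC library. Cox7a2l, a factor that joins complexes III and IV, differed least among the genes above 2 CPM, at 52.5 and 56.4 CPM against 115 and 57 (-0.66, SE 0.44, edgeR adjusted p = 0.372). Cox6b2 (1.21), Cox7a1 (0.54) and Cox4i2 (0.25) were the 3 members with a higher estimate, and Cox6b2 was the only one without overlap, against 34.4% of all genes. Its counts were 27 and 66 in KMC and 1 and 13 in KC.

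Many cell type markers differed beside the members in this comparison. Leukocyte and macrophage markers were higher for 8 of 8 genes each, all at p under 0.05, with sums of 269 to 607 against 60.7 to 93.6 CPM and of 979 to 3042 against 308 to 357 CPM. Fibroblast markers were higher for 8 of 8 (7 at p under 0.05), at 2428 to 7776 CPM against 451 to 994, and ductal markers for 9 of 10 (5 at p under 0.05). Smooth muscle and pericyte markers were higher for 9 of 9 (5 at p under 0.05). Acinar markers were lower for 36 of 37 (8 at p under 0.05). Erythroid (5 of 5 lower) and islet markers (5 of 7 lower) were lower in summed CPM. As a share of all counts both sums were higher in KMC without overlap, with the erythroid markers at 0.0161% and 0.0224% against 0.0108% and 0.0145% and the islet markers at 0.166% to 0.184% against 0.121% to 0.149%. Adipocyte markers overlapped. The part of this change in cell makeup in the lower subunit levels was not tested, and age and sex differed between the groups as well.

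Whether M46 and HPK1 had different effects on the members was tested in 1 model of the MC and HC experiments, as the M46 effect minus the HPK1 effect. The difference was below 0 for 59 of 65 members, against 53% of all genes, and above 0 for 6, against 47%, with a median of -0.39 against -0.03 over 14884 genes. No member was called by edgeR, where 2.49% of all genes were called. At an unadjusted p under 0.05, 19 members were below 0 (8.43% of all genes) and 2 above (12.3%). Uqcr10 differed by -0.63 (SE 0.20, edgeR adjusted p = 0.113), Cox5a by -0.56 (SE 0.20, edgeR adjusted p = 0.148) and Sdhd by -0.46 (SE 0.17, edgeR adjusted p = 0.156). Ndufa4l2 differed in the other direction, by 1.04 (SE 0.34, edgeR adjusted p = 0.122). DESeq2 called Uqcr10 (-0.67, DESeq2 adjusted p = 0.0391) and no other member, where it called 9.86% of all genes. With library size alone the split was 32 above and 33 below 0, with a median of -0.00 against 0.34 for all genes. Leaving out 1 library gave 0 to 3 members called. Without the first MC library this was Uqcr10, where 3.52% of all genes were called, and without the second MC control library Ndufa12 (-0.80), Ndufs7 (-0.83) and Cox6b2 (1.82), where 14.1% of all genes were called. The experiments differ in age, library kit, control label (B or wildtype) and share of acinar counts. These cannot be told apart from the transgene, and by the labels the HC effect includes Bac-cre as well as HPK1. The sex-linked genes differed within HC and were not listed for MC. The direction rests on the libraries labelled HC.

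Of the 64 members tested in all 3 comparisons, 50 had a lower estimate in MC, a higher one in the libraries labelled HC and a lower one in KMC. Whether the labels of the HC experiment are right was not tested, and with them exchanged these 50 would be lower in all 3. A further 9 were higher in MC and HC and lower in KMC. The 5 left had higher estimates in MC and lower ones in HC, and 3 of these were higher in KMC. The comparisons share no control libraries.

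The isoforms for other tissues were set against their ubiquitous partners. Counted per 1000 counts of its partner, an isoform does not depend on how the libraries were scaled. Cox4i2 per 1000 Cox4i1 was 5.96, 4.96 and 5.41 in the libraries labelled HC against 8.81 and 12.3 in the control, and 7.36 and 5.95 in KMC against 2.26 and 2.87 in KC. In both comparisons the groups did not overlap, with the HC libraries lower and the KMC libraries higher. Cox7a1, the heart and skeletal muscle isoform, per 1000 Cox7a2 was 11.3, 8.07 and 11.3 in HC against 17.8 and 13.2, and 12 and 11.6 in KMC against 2.90 and 4.13. Ndufa4l2 per 1000 Ndufa4 was 96.1, 45.2 and 60.5 in HC against 120 and 99.7, and 41.6 and 67.3 in KMC against 28.9 and 36.9. Cox6b2 per 1000 Cox6b1 was 37.2, 21 and 25.3 in HC against 41.4 and 46.7, and 15.1 and 19.4 in KMC against 0.522 and 9.42. These 4 ratios were lower in HC and higher in KMC without overlap. In MC all 4 overlapped with the control. By their own CPM, Ndufa4l2 and Cox4i2 were lower in HC and Cox6b2 was higher in KMC without overlap. The other isoforms of these 4 overlapped in CPM while their partners moved. Cox6b1 (0.51) and Cox7a2 (0.42) were higher in HC. Cox7a2 (-1.36), Cox4i1 (-1.24) and Ndufa4 (-0.84) were lower in KMC. In KC the mean was 0.214 CPM for Cox7a1 and 0.408 CPM for Cox4i2, so these ratios rest on few counts. Cox6a2 per 1000 Cox6a1 was 0.414, 0.354 and 0.812 in HC against 3.48 and 2.26, on few counts, and overlapped elsewhere. Ratios with so few libraries were not tested.

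**Figure D4:**
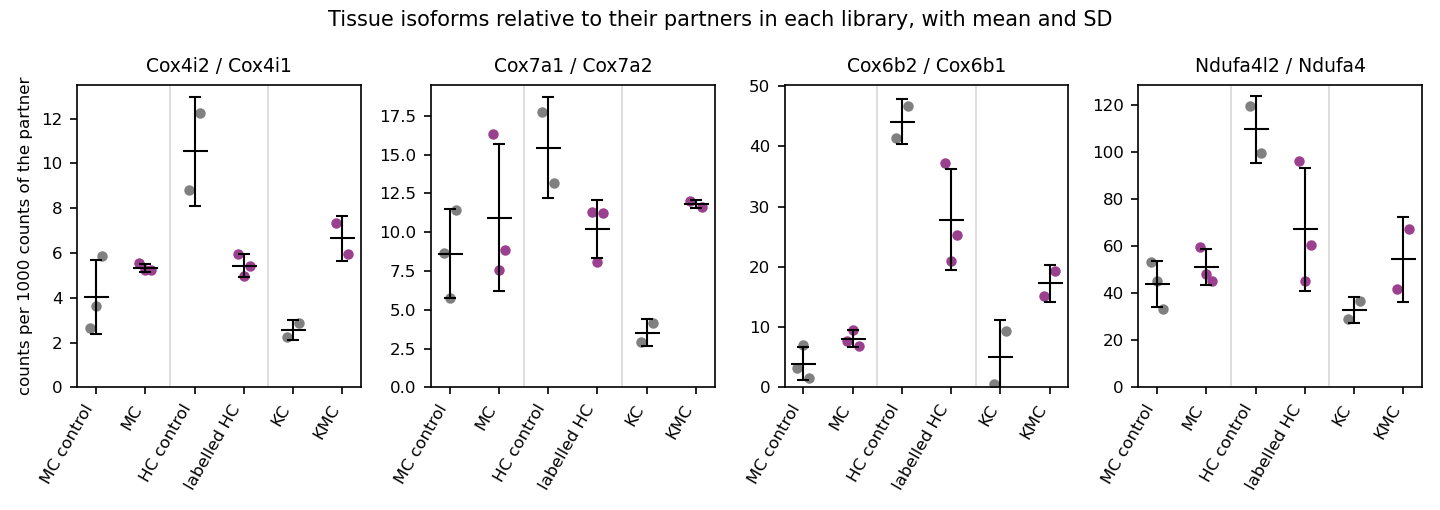
Counts of 4 tissue isoforms per 1000 counts of their ubiquitous partner (y axis from 0) in each library (points) of the 6 groups, with mean and SD. The HC libraries lie below both of their controls and the KMC libraries above both KC libraries in each panel, while MC overlaps with its control.

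Smooth muscle and pericyte markers were lower in sum in HC, at 439 to 586 CPM against 693 to 810. In KMC they were higher, at 160 and 284 CPM against 68.8 and 94.2, and the ratios had these directions too. By gene, 7 of 10 had a lower and 3 a higher estimate in HC, and 9 of 9 a higher one in KMC. The pericyte potassium channel subunit Abcc9 was lower in the libraries labelled HC (-0.82, edgeR adjusted p = 0.0683) and higher in KMC (1.5, edgeR adjusted p = 0.178). The pericyte regulator Rgs5 was at -0.76 and 1.40 in these comparisons. Most leukocyte, macrophage and fibroblast markers also had lower estimates in HC and higher ones in KMC, and in MC the smooth muscle and pericyte markers were higher for 9 of 9 genes while the 4 ratios overlapped. The part of such cells in the isoform ratios was not tested.

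Ndufs5, an accessory subunit of complex I in the intermembrane space (chr4:123712710-123718202, minus strand, GRCm38), varied more than any other member. It stood at 12.9, 11.8 and 5.75 CPM in MC and 7.44, 13.3 and 15.6 in the control. In the libraries labelled HC it stood at 14.2, 18.8 and 14.0 CPM and in their control at 6.77 and 12.6. In KC it stood at 16.3 and 0.581 CPM, and in KMC at 3.91 and 0.310. The underlying reads numbered 240 and 15 for KC against 159 and 26 for KMC, so the first library of each group was high and the second low. As a share of complex I counts Ndufs5 took 0.752% and 0.0559% for KC and 0.503% and 0.0504% for KMC. Its SD within groups was 1.49 on the log2 scale, the highest of 61 members with a mean of at least 2 CPM. Uqcrq followed at 0.458, and the median member was at 0.318. The estimate for KMC against KC was -2.01 (SE 1.44, edgeR adjusted p = 0.398), with overlapping groups. No exon of Ndufs5 overlaps another gene in the annotation.

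**Figure D5:**
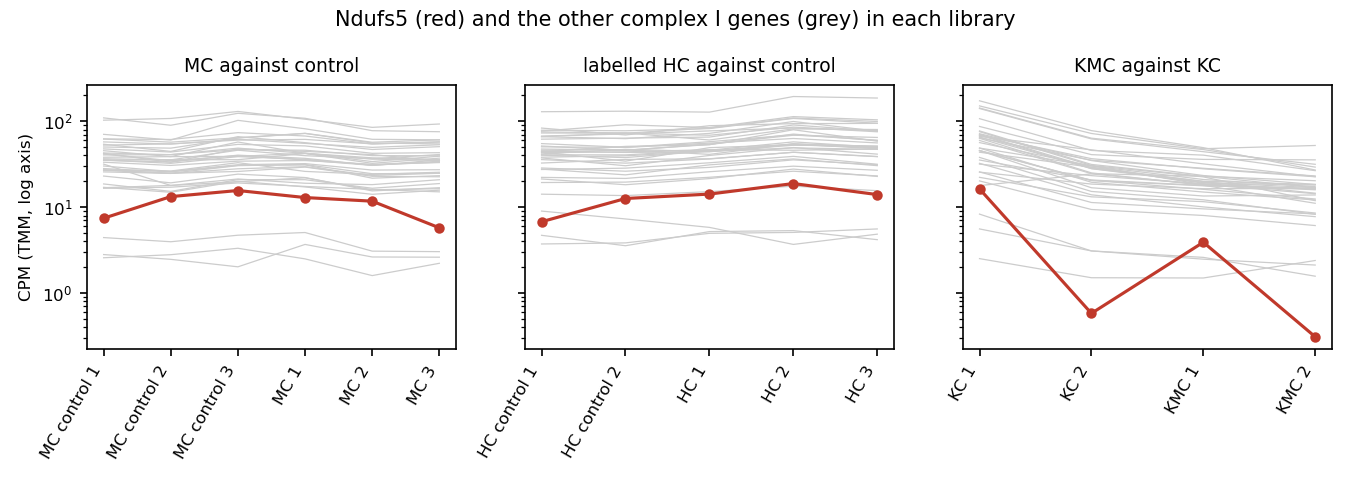
CPM (TMM, log axis) of Ndufs5 in red and of the other complex I genes in grey in each library (x axis) of the 3 experiments, with lines that only join the values of a gene. Ndufs5 stands at 0.581 CPM in the second KC and 0.310 CPM in the second KMC library, against 16.3 and 3.91 CPM in the first of each.

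Other mitochondrial genes were taken from lists by function. The ATP synthase genes followed the members, with medians of -0.09 in MC (13 of 17 lower, none at p under 0.05), 0.28 in HC (16 of 17 higher, 5 at p under 0.05) and -1.06 in KMC (17 of 17 lower, 9 at p under 0.05). The 12 tested subunits encoded by mitochondrial DNA had medians of -0.10, 0.12 and -0.87, with 2 at p under 0.05, both lower in KMC. Per nuclear subunit count, mitochondrially encoded counts were 2.997, 2.98 and 2.77 in the libraries labelled HC against 3.11 and 3.47, lower in each. Genes of the mitochondrial ribosome stood lower in MC for 69 of 77, with a median of -0.23 and 13 at p under 0.05, against 5.46% of all genes. Mrps30 had the smallest p there (-0.44, SE 0.12, edgeR adjusted p = 0.197). In HC the median was 0.11 with 2 higher at p under 0.05, and in KMC -0.88 with 35 of 77 lower at p under 0.05. For these and the ATP synthase counts, the shares of all genes were 8.39% higher in HC and 9.48% lower in KMC. The ratio of member counts to mitochondrial ribosome counts was 2.10, 1.94 and 1.92 in MC against 1.77, 1.85 and 1.90, and 2.44, 2.62 and 2.51 in HC against 2.25 and 2.24, higher in each library of both. EdgeR called no gene of these lists in the 3 comparisons.

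The respiratory assembly factors had medians of -0.15 in MC (32 of 39 lower), 0.08 in HC (27 of 40 higher, 4 at p under 0.05) and -0.66 in KMC (36 of 39 lower, 9 at p under 0.05). The shares of all genes at such a p were 8.39% higher in HC and 9.48% lower in KMC. Genes of the TCA cycle and pyruvate dehydrogenase had medians of -0.14, 0.12 and -0.56, and genes of mitochondrial import and membrane transport of -0.15, 0.09 and -0.52. Glycolysis genes had medians of 0.08, 0.17 and -0.20. Pfkp, a glycolytic phosphofructokinase, was at 0.70 in MC (edgeR adjusted p = 0.252) and at 1.44 in KMC (edgeR adjusted p = 0.103). Member counts per glycolysis count were 3.78 and 2.02 in KMC against 6.64 and 4.92 in KC, lower in both libraries, and overlapped in MC and HC. The direction in KMC depends on the scaling. As a share of all counts, the sums of the ATP synthase, mitochondrially encoded, mitochondrial ribosome, assembly factor, TCA cycle, import and glycolysis genes were higher in both KMC libraries than in both KC libraries.

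Among 14 regulators of mitochondrial biogenesis, 14 had a lower estimate in MC, and Pprc1, a coactivator related to PGC-1, was at -0.45 (SE 0.12, edgeR adjusted p = 0.172). Tfb2m, a mitochondrial transcription factor, was at -0.64 (edgeR adjusted p = 0.228), and no other regulator had a p under 0.05 in MC. In the libraries labelled HC, Esrra, an estrogen-related receptor that acts on respiratory genes, was at 0.47 (SE 0.10, edgeR adjusted p = 0.113). Ppargc1b was at 0.46 and Pprc1 at -0.37, and the list was split 7 to 7. In KMC no regulator had a p under 0.05, and Nrf1 and Gabpa, whose letters are shown in the promoters above, were at 0.05 and 0.28. The M46 effect minus the HPK1 effect was -0.60 for Esrra (SE 0.17, edgeR adjusted p = 0.0760).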

How the data were processed

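Pancreas RNA of 15 libraries was sequenced, per the labels, as 3 experiments. The deposited count tables hold whole-number read counts per Ensembl gene, which the authors made with STAR 2.6.1a, HTSeq 0.6.1 and the mm10 (GRCm38) genome after bcl2fastq 2.17.14, per the submitters' processing notes. The annotation release is not given in the sources used here. The labels name Trizol and, for the HC and KMC experiments, a stranded KAPA kit, while the study's methods name another extraction and kit. The counts were not normalized, and the MC table lists fewer genes than the others.

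Counts were tested with edgeR 4.0.16 in R 4.3.3 (filterByExpr, TMM, quasi-likelihood F-test, Benjamini-Hochberg adjustment over all genes tested), separately for MC, HC and KMC against their controls and in 1 model for the M46 effect minus the HPK1 effect. A call is an adjusted p of at most 0.05. DESeq2 1.42.0, other scalings, other filters, a replicate block and fits without 1 library were the alternatives. Symbols, transcript lengths and overlaps came from GENCODE on GRCm38 and promoters from RefSeq. The fits were tested on simulated data. At a depth of 29766575 to 38745907 counts, precision was limited for genes with few counts, also above 3 counts. The SE of the log2 fold change was 0.50 for Cox6b2 in MC and 0.77 for Cox7a1 in KMC. Intervals and floors cover counting error alone. Named members had the smallest p or the extreme fold changes of each complex (mean of at least 2 CPM), or were core subunits and isoform pairs. The members and lists were chosen with earlier results of these data known. Values of 1 member that this rule names are not reported here.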

Additional observations from a re-analysis of the deposited data

How the results depend on the processing

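With library size alone in place of TMM, the median of all genes shifted to 0.29 in MC and 1.47 in KMC. The members' median became 0.25 in MC, with 1 member at an unadjusted p under 0.05, and 0.45 in KMC, with 2 such members and 1 called (Cox6b2), and 3 members had such a p in the M46 effect minus the HPK1 effect. Of all genes, 9.99% in MC, 45.4% in KMC and 15.3% in the difference had such a p, and 30% were called in KMC. Library sizes without acinar genes gave 17 such members in HC, against 16.3% of all genes, and 5 in KMC, against 29%. DESeq2 called 1 member in HC, 16 in KMC and 1 in the difference of effects. It called 6.81% of all genes in HC, 3.86% lower in KMC and 9.86% in the difference. A single fit of the HC and KMC experiments called 36 members in KMC, where it called 21.6% of all genes, and left 3 in HC with a p under 0.05, against 6.56% of all genes. Relative to all genes, the members' median lay between -0.15 and 0.01 in MC, 0.21 and 0.39 in HC, -1.69 and -0.55 in KMC and -0.46 and -0.28 in the difference over the alternatives run. Leaving out 1 library at a time gave the following ranges. In MC 0 to 4 members had a p under 0.05, against 7.25% to 29.5% of all genes, and the median was -0.16 to 0.01. In HC the median was 0.21 to 0.38. In the fits without 1 HC library, 9 to 39 members had such a p, against 10.9% to 21.2% of all genes. In KMC 0 to 8 members were called, 0 to 53 had a p under 0.05 and the median was -1.51 to -0.50. Every one of these KMC fits left 1 library in a group, so their counts were not set against all genes. For the difference, only fits that kept at least 2 libraries in each group are given. They called 0 to 3 members, against 0% to 14.1% of all genes. In them 5 to 37 members had a p under 0.05, against 15.4% to 30.8% of all genes. Relative to all genes, Ndufs5 in KMC ran from -4.78 to 1.78, the latter without the first KC library. The cause of these shifts was not tested.

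Deviations from the group means of same-numbered libraries correlated at 0.07, 0.30 and -0.30 in MC, 0.19 and 0.17 in HC, and 0.05 and 0.05 in KMC. Not every MC library correlated best with its own number. In a group of 2 libraries the deviations mirror each other, so this check cannot decide the pairing in HC or KMC. The numbers were not taken to pair libraries in any experiment, which for HC and KMC was a choice and not a finding. With the replicate number as a block, 21 members were called in KMC, where 15.7% of all genes were called. In the difference of effects 8 members had a p under 0.05, against 18% of all genes. HC had 19 members with a p under 0.05 in place of 28, against 16.8% of all genes. Over all genes the calls went from 136 to 468 in HC, from 3 to 2464 in KMC and from 371 to 0 in the difference.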

Other observations

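The first and the second KC library differed with transcript length. Across 14043 genes the log2 CPM of the first less that of the second had a Spearman correlation of -0.37 with the length of the principal transcript, and across the 65 members of -0.45. These are correlations across genes that share the same 2 libraries, and genes are not independent replicates. The 795 genes under 1000 bases were higher in the first KC library by a median of 0.79, and the longer genes by -0.05. Among the members, the 39 under 1000 bases were higher there by a median of 1.18 and the 26 longer ones by 0.88, so the members of both length classes stood higher. For KMC against KC, the short members had a median log2 fold change of -1.13 and the long ones of -1.06, while over all genes the short ones had -0.70 and the long ones 0.09. In the libraries labelled HC, the members had 0.34 and 0.26 and all genes 0.15 and -0.01. The part of transcript length in the subunit levels was not tested.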
